A study of Mus musculus with 5 samples.

Results

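Guanylate-binding protein genes (Gbp genes) were followed in liver RNA of neonatal mice. The members are the 10 rows of the count files whose symbol is Gbp2, Gbp3, Gbp4, Gbp5, Gbp6, Gbp7, Gbp8, Gbp9, Gbp10 or Gbp11, out of 36401 rows in all. The rows were selected on their symbol, but the family itself was chosen by measured values, its genotype difference in these same libraries being known. That difference is therefore described here and nothing is supported by it. Mdr2+/- pups gave 3 libraries and Mdr2+/+ pups gave 2. Both groups were BALB/C littermates on day 10 of life, from a Mdr2-/- line backcrossed to that strain. Mdr2 is the older name of Abcb4, the canalicular transporter that moves phosphatidylcholine into bile, and the allele is a germline one carried by every cell. RNA came from lobe 1 of the whole liver, so fewer cells of a type and less RNA per cell cannot be told apart.

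Gbp genes encode large GTPases of the dynamin superfamily that are among the transcripts most strongly induced by interferon-gamma. The proteins bind GTP, assemble into oligomers and coat vacuoles or bacteria inside the cell, where they work with immunity-related GTPases and help to start inflammasome signalling. In the mouse the genes lie in a cluster on chromosome 3 and another on chromosome 5, and they arose by repeated duplication, so their sequences are alike.

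On the mm10 assembly, the chromosome 3 cluster runs from 142496934 to 142638008 (RefSeq positions by symbol, plus strand) and holds 4 members in the order Gbp5, Gbp7, Gbp3 and Gbp2. A further family row lies between Gbp3 and Gbp2, called Gbp1 in the files and Gbp2b in RefSeq; it is no member and is used for comparison. The chromosome 5 cluster runs from 105012513 to 105346476 on the minus strand and holds 6 members in the order Gbp8, Gbp9, Gbp4, Gbp10, Gbp6 and Gbp11. It lies 96.1 Mb from Abcb4 on the same chromosome. Identifiers and symbols do not always match between annotations. GENCODE M21 gives the identifier of the Gbp5 row (ENSMUSG00000040264) to Gbp2b and that of the Gbp6 row (ENSMUSG00000079362) to Gm43302, and it does not hold the identifiers of the Gbp10 and Gbp1 rows. Rows are therefore called by the symbol in the files. Which copy the reads of Gbp5, Gbp6, Gbp10 and the Gbp1 row came from is less certain than for the other 7 members. The Gbp1 row was taken to be Gbp2b without a match of identifiers. If the Gbp5 or Gbp6 identifier is followed instead of the symbol, the place, length and sequences given are not those of the gene counted.

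How alike the copies are decides how reads could be shared among them. A 60-base coding stretch that starts at the codons of the P-loop, the GTP-binding motif of these enzymes, shows it. For the chromosome 5 members, capitals mark bases that differ from Gbp6, and sequences run 5′ to 3′ from GENCODE M21 transcripts.
Gbp6: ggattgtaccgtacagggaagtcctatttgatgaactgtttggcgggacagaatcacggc
Gbp10: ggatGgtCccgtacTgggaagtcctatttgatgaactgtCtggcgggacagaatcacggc
Gbp11: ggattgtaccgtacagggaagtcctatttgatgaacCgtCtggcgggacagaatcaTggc
Gbp9: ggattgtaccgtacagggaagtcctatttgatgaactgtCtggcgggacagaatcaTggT
Gbp8: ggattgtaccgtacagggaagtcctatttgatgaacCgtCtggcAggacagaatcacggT
Gbp4: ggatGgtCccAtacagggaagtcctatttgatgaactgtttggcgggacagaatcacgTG
Each of the other 5 chromosome 5 copies differed from Gbp6 at 3 to 5 of the 60 bases. For the chromosome 3 members, capitals mark bases that differ from Gbp2.
Gbp2: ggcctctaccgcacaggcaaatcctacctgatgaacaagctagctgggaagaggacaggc
Gbp5: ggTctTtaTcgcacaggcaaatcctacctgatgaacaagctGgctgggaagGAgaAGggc
Gbp7: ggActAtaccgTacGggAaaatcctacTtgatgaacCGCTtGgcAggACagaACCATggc
Gbp3: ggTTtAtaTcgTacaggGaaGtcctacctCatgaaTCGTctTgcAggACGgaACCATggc
Here the differences from Gbp2 numbered 8 in Gbp5, 19 in Gbp7 and 22 in Gbp3. Over whole reading frames Gbp6 and Gbp10 were identical at 98.4% of aligned bases, Gbp2 and Gbp2b at 82.5%, and Gbp3 and Gbp7 at 78.3%.

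Transcripts were also compared by the 50-base words they hold in common, as a stand-in for short reads. Of the words of Gbp6, 62.3% occurred in Gbp10, and 70.1% in any other member or Gbp2b. Gm43302 was left out of this comparison, so words shared with it are not counted. For Gbp10 the share found in the family was 50.3%. The other chromosome 5 members shared 7.48% (Gbp9) to 21.2% (Gbp8) of their words. On chromosome 3 the share was 4.79% for Gbp3, 2.28% for Gbp7 and 2.07% for Gbp2, and no word of Gbp5 was shared. Gbp5 had whole-number counts in 5 of 5 libraries (tolerance 0.001), the Gbp1 row in 4 and Gbp2 in 1 of 5, while the other 8 members had fractional counts in all 5.

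**Figure D1:**
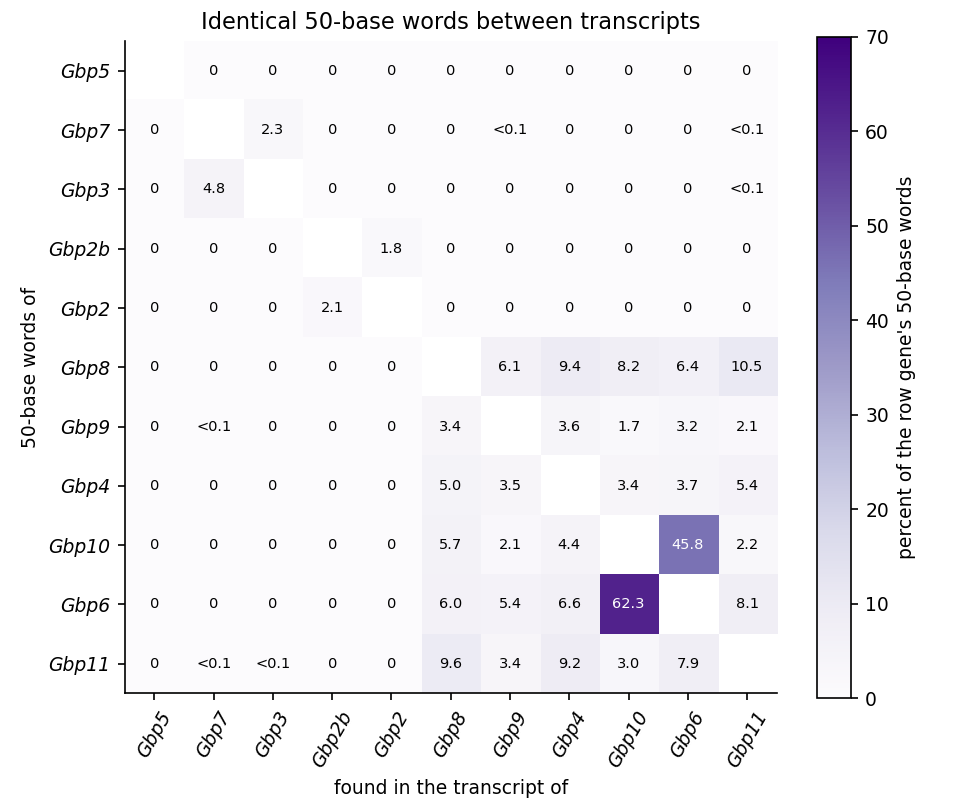
Percent of each row gene's distinct 50-base words that occur in the transcript of each column gene, for the 10 members and Gbp2b. Gbp6 and Gbp10 share 62.3% and 45.8% of their words with each other, and the chromosome 3 rows hold values under 5%.

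The libraries held 11944157 to 17312851 estimated counts and 18899 to 19536 genes above 0. Abcb4 itself, in CPM (counts divided by the TMM-scaled library size), stood at 101, 97.7 and 92.6 CPM in Mdr2+/- livers, against 162 and 162 CPM in Mdr2+/+ livers, a log2 fold change of -0.74 (SE 0.06, adjusted p = 3.4e-04), so the labels and the targeted gene went the same way.

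Guanylate-binding protein RNA was lower in Mdr2+/- livers in both clusters. All 10 members passed the filter on low counts. Their levels were lower in each of the 3 Mdr2+/- libraries than in both Mdr2+/+ libraries for 10 of 10, where 22.7% of 13959 tested genes had that arrangement. In the fit across all genes (edgeR quasi-likelihood test with Benjamini-Hochberg adjustment, threshold 0.05) 10 of 10 members were called lower, and 0 higher, beside 5.41% of all tested genes called lower and 6.63% called higher. Because the family was proposed from this contrast, these shares are printed side by side and nothing is read from them. The median log2 fold change (Mdr2+/- minus Mdr2+/+) was -0.93 over the members and -0.00245 over all tested genes.

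The chromosome 3 members differed by -0.92 to -1.74 on the log2 scale, with a median of -1.10. Gbp2, a prenylated GTPase recruited to parasite vacuoles in mouse cells, had 19.2, 16.6 and 17.4 CPM in Mdr2+/- livers, against 42.9 and 35.8 CPM in Mdr2+/+ livers. The groups were well apart, and the log2 fold change was -1.16 (SE 0.10, adjusted p = 0.000375). Gbp3 had 9.42, 12.9 and 9.65 CPM in Mdr2+/- livers, against 45.0 and 25.7 CPM in Mdr2+/+ livers. It showed the largest fold among the members, -1.74 (SE 0.22, adjusted p = 0.00171), and also the widest gap between the Mdr2+/+ libraries, where library 1 stood at 1.75 times library 2. Gbp7, which in mouse macrophages helps to bring the NADPH oxidase to vacuoles, had 31.5, 33.6 and 32.2 CPM in Mdr2+/- livers, against 77.9 and 54.8 CPM in Mdr2+/+ livers. Its log2 fold change was -1.04 (SE 0.12, adjusted p = 0.00144). Gbp5, reported to promote assembly of the Nlrp3 inflammasome, had the fewest counts, at 1.65, 1.76 and 2.38 CPM in Mdr2+/- livers, against 4.16 and 3.20 CPM in Mdr2+/+ livers. These levels rest on 21 to 41 counts in Mdr2+/- and 63 and 38 counts in Mdr2+/+ libraries, and its log2 fold change of -0.92 has the largest SE of the family (0.23, adjusted p = 0.0323). The Gbp1 row had 14.4 ± 1.20 CPM in Mdr2+/- (SD, n = 3) and 32.1 ± 7.15 CPM in Mdr2+/+ livers (SD, n = 2), a log2 fold change of -1.17 (adjusted p = 0.00116).

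The chromosome 5 members were lower by smaller amounts, with log2 fold changes of -0.49 to -0.98 and a median of -0.72. Gbp6 had 60.5, 62.6 and 59.4 CPM in Mdr2+/- livers, against 132 and 101 CPM in Mdr2+/+ livers (log2 fold change -0.94, SE 0.10, adjusted p = 8.6e-04). Its near-copy Gbp10 had 45.1, 44.9 and 41.8 CPM in Mdr2+/- livers, against 94.8 and 77.8 CPM in Mdr2+/+ livers (log2 fold change -0.98, SE 0.09, adjusted p = 4.3e-04). Both were hits in a knockdown screen for defence of mouse macrophages against bacteria. Since 62.3% of Gbp6 words and 45.8% of Gbp10 words occur in the other copy, counts of the pair cannot be read as separate measurements. Gbp11, annotated as a polymorphic pseudogene in the C57BL/6J reference, had the most counts of all members. It stood at 119, 141 and 117 CPM in Mdr2+/- livers, against 201 and 158 CPM in Mdr2+/+ livers, so the highest Mdr2+/- library came close to the lower Mdr2+/+ library (log2 fold change -0.51, SE 0.11, adjusted p = 0.0179). Gbp4, reported in mouse cells to bind and restrain Irf7, had 28.5, 28.9 and 26.1 CPM in Mdr2+/- livers, against 54.8 and 33.8 CPM in Mdr2+/+ livers (log2 fold change -0.68, SE 0.16, adjusted p = 0.0261). Gbp8 had 15.5, 15.7 and 13.8 CPM in Mdr2+/- livers, against 31.0 and 19.0 CPM in Mdr2+/+ livers (log2 fold change -0.75, SE 0.17, adjusted p = 0.0231). Gbp9 had 18.1, 16.6 and 15.1 CPM in Mdr2+/- livers, against 25.8 and 20.5 CPM in Mdr2+/+ livers (log2 fold change -0.49, SE 0.12, adjusted p = 0.0275). For Gbp4, Gbp8, Gbp9 and Gbp11 the gap between the groups was small beside the gap between the Mdr2+/+ libraries.

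**Figure D2:**
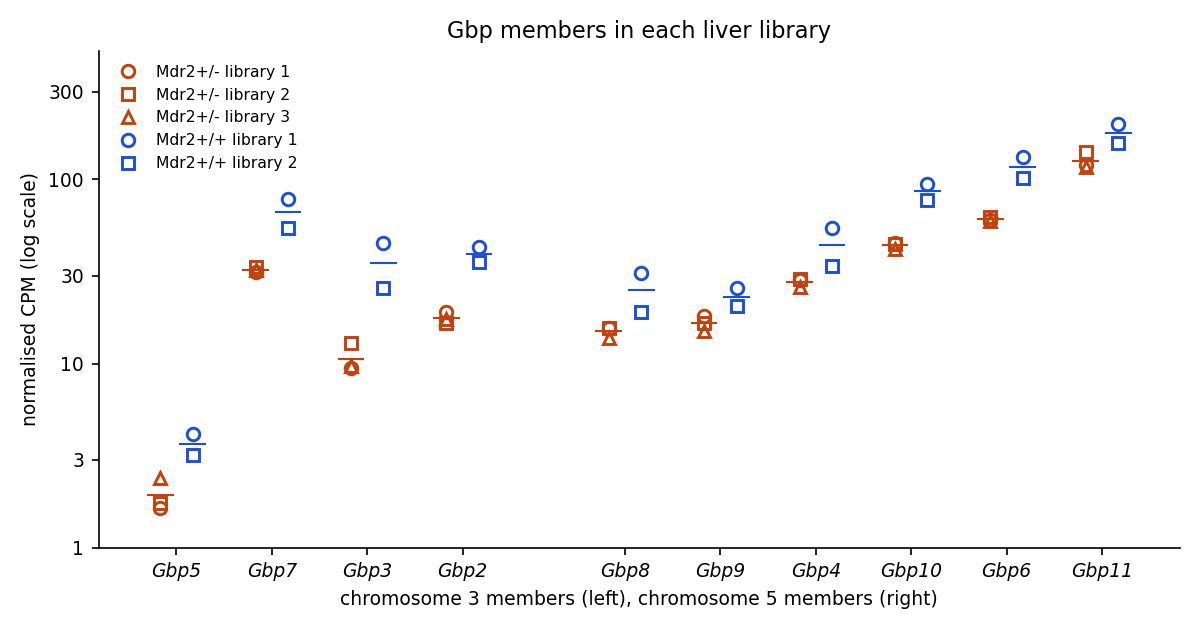
Normalised CPM (log scale) of each member in the 3 Mdr2+/- and 2 Mdr2+/+ libraries, with bars at the group means, chromosome 3 members left and chromosome 5 members right. No member's groups overlap, and Mdr2+/+ library 1 is the highest library for each of the 10.

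A read divided among copies of a cluster stays in the cluster's sum, so the sums were compared too. The 4 chromosome 3 members summed to 61.7, 64.9 and 61.7 CPM in Mdr2+/- livers, against 170 and 120 CPM in Mdr2+/+ livers, a log2 ratio of means of -1.21. The 6 chromosome 5 members summed to 287, 309 and 274 CPM in Mdr2+/- livers, against 539 and 410 CPM in Mdr2+/+ livers, a log2 ratio of -0.71. The chromosome 3 cluster therefore made up 17.7, 17.3 and 18.4% of all member CPM in Mdr2+/- livers, against 23.96 and 22.6% in Mdr2+/+ livers, without overlap between the groups. Within the chromosome 5 sum, Gbp11 held 41.6, 45.5 and 42.9% in Mdr2+/- livers, against 37.3 and 38.4% in Mdr2+/+ livers. With Gbp11 left out, the chromosome 5 log2 ratio was -0.85, and with the Gbp1 row added the chromosome 3 ratio was -1.20. The difference between the clusters was not tested, since a score over members chosen in this way is given no p-value.

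**Figure D3:**
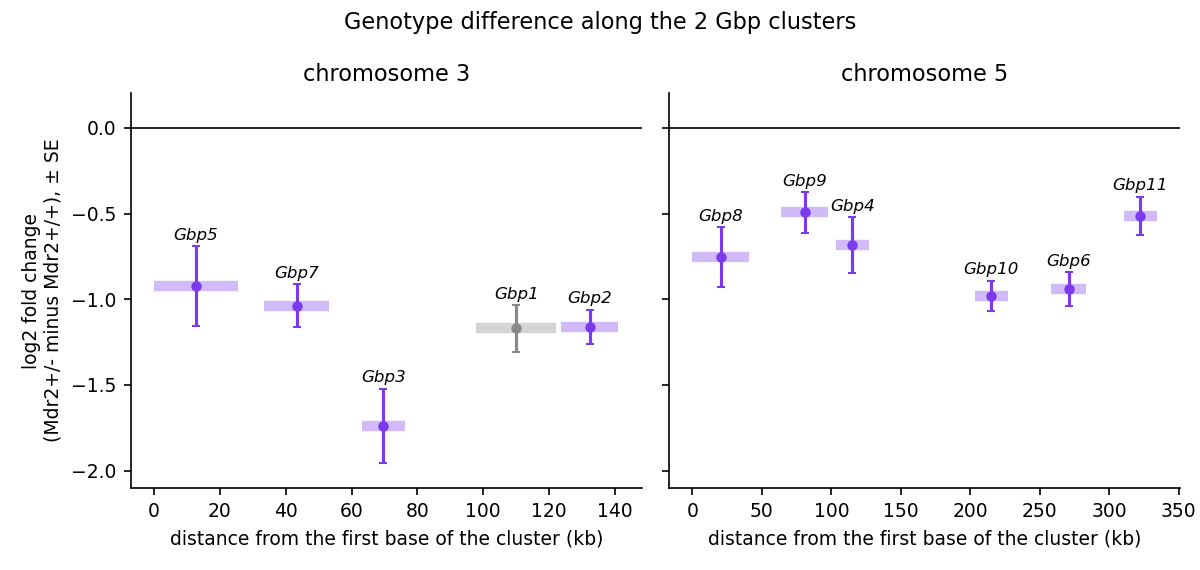
Log2 fold change (Mdr2+/- minus Mdr2+/+, ± SE, points) of each family gene against its place in its cluster in kb, with pale bars spanning the gene; the Gbp1 row is grey. Chromosome 3 genes lie between -0.92 and -1.74 and chromosome 5 genes between -0.49 and -0.98.

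Genes around the clusters had medians nearer 0. Within 500 kb of the chromosome 3 cluster 4 other genes were tested, of which 1 was called lower and 0 higher, with a median log2 fold change of 0.08. The gene called was Gtf2b, the general transcription factor TFIIB (22.8 ± 0.470 CPM in Mdr2+/- and 29.3 ± 1.17 CPM in Mdr2+/+ livers, log2 fold change -0.36, adjusted p = 0.0167). Gtf2b lost its call without Mdr2+/+ library 1, Mdr2+/+ library 2 or Mdr2+/- library 2 and in DESeq2 (adjusted p = 0.0532 to 0.0871). Around the chromosome 5 cluster 6 other genes were tested, and edgeR called 0, with a median of 0.20 and a range of -0.22 to 0.54.

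The libraries within a genotype were unequal in spread. Among the Mdr2+/- libraries a member's highest level was 1.05 to 1.45 times its lowest. Between the Mdr2+/+ libraries, library 1 was the higher for all 10 members, by 1.20 to 1.75 times. Over the 8128 tested genes with a mean of at least 10 CPM in Mdr2+/+ livers the median of that ratio was 0.989, and 3.00% of them were above 1.3. An excess in library 1 was not confined to the members. The immunity-related GTPase Igtp had 231 and 157 CPM in Mdr2+/+ libraries 1 and 2. Marco, a macrophage marker named after its values were seen, had 55.4 and 26.0 CPM there. The immunity-related GTPase Gm4951, named likewise, went the other way with 58.1 and 59.6 CPM. Leaving Mdr2+/+ library 1 out reduced the number of members called lower to 5 of 10, namely Gbp2, Gbp3, Gbp7, Gbp6 and Gbp10. The log2 fold change then became -0.29 for Gbp4, -0.35 for Gbp8, -0.32 for Gbp9, -0.33 for Gbp11 and -0.71 for Gbp5, with adjusted p-values of 0.123 to 0.217 in edgeR. Leaving out Mdr2+/- library 2 or Mdr2+/- library 3 left 6 members called, and Mdr2+/- library 1 left 8. Over all tested genes 376, 445 and 504 were called lower without Mdr2+/- library 2, 3 and 1, against 755 with all libraries. Calls were also fewer across all tested genes without either Mdr2+/+ library, which leaves 1 library in that group. The loss of calls is therefore not particular to the members. Gbp2, Gbp3, Gbp7, Gbp6 and Gbp10 were called in 13 of 13 alternative fits.

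**Figure D4:**
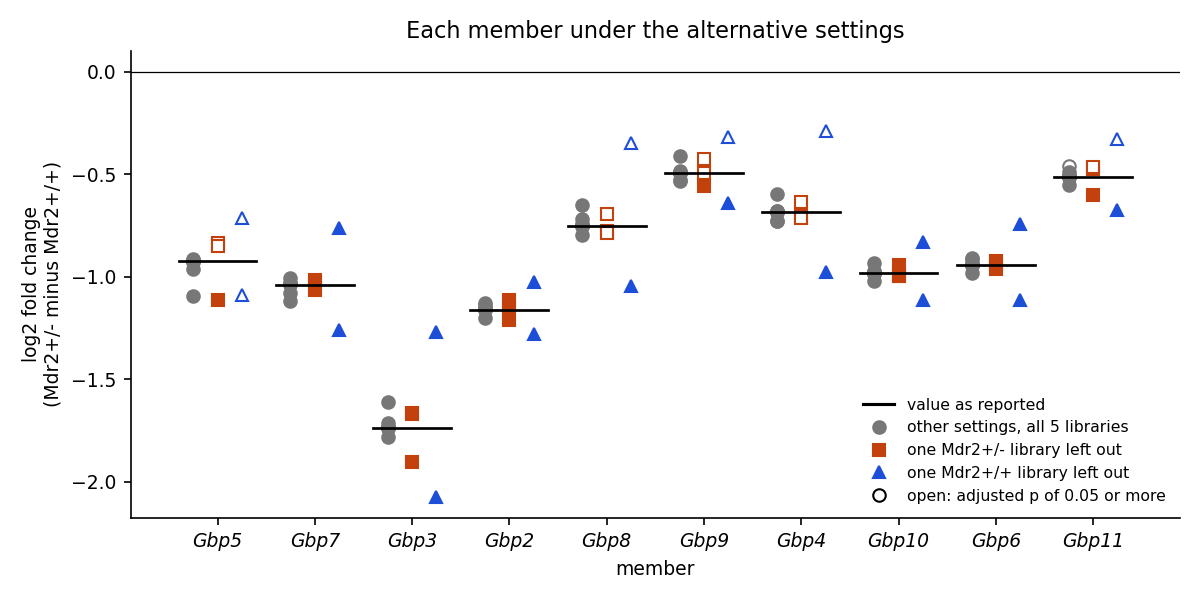
Log2 fold change of each member (Mdr2+/- minus Mdr2+/+) under each alternative: other settings with all libraries (circles), one Mdr2+/- library left out (squares) and one Mdr2+/+ library left out (triangles); open symbols have an adjusted p of 0.05 or more. Every point lies below 0, and leaving out Mdr2+/+ library 1 moves each of the 10 values most.

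Per length, the members covered a wide range. Scaled by the longest coding transcript of GENCODE M21, Gbp11 had 46.8 RPKM (CPM per kilobase of transcript) in Mdr2+/- and 66.7 RPKM in Mdr2+/+ livers. Gbp6 followed with 23.4 RPKM in Mdr2+/- and 44.8 RPKM in Mdr2+/+ livers, and Gbp10 with 12.4 RPKM in Mdr2+/- and 24.5 RPKM in Mdr2+/+ livers. Gbp2 came next with 7.04 RPKM in Mdr2+/- and 15.6 RPKM in Mdr2+/+ livers. Gbp3, Gbp7, Gbp8 and Gbp4 came after it in Mdr2+/+ livers, where the neighbours Gbp2 and Gbp3, Gbp3 and Gbp7, Gbp7 and Gbp8, and Gbp8 and Gbp4 overlapped in range. Gbp2 lay above Gbp7, Gbp8 and Gbp4 in both Mdr2+/+ libraries. Gbp9 had a mean below those of Gbp3, Gbp7, Gbp8 and Gbp4, at 3.79 RPKM in Mdr2+/- and 5.28 RPKM in Mdr2+/+ livers. In Mdr2+/- livers its range of 3.44 to 4.14 RPKM overlapped the 3.51 to 4.80 RPKM of Gbp3. Gbp5 was last, with 0.632 RPKM in Mdr2+/- and 1.20 RPKM in Mdr2+/+ livers. Gbp3 held rank 8 of 10 in Mdr2+/- and rank 5 in Mdr2+/+ livers. This order depends on the transcript taken as the length. With the shorter transcript of 2497 bases in place of the one of 5614 bases, Gbp7 would stand at 13.0 RPKM in Mdr2+/- and 26.6 RPKM in Mdr2+/+ livers. Gbp8 with its transcript of 1600 bases would stand at 9.38 RPKM in Mdr2+/- and 15.6 RPKM in Mdr2+/+ livers. Gbp9 with its transcript of 2701 bases would stand at 6.14 RPKM in Mdr2+/- and 8.57 RPKM in Mdr2+/+ livers. Its Mdr2+/- mean would then no longer lie below those of Gbp4 and Gbp3.

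RefSeq promoter windows (250 bases before to 50 after the start site, GRCm38.p6, the assembly behind mm10) were read for the chromosome 3 genes. They were searched on both strands for the letters of the interferon-stimulated response element, which are GAAA, any 2 bases and GAAA again, and of the gamma-activated site, TTCNNNGAA. Of the chromosome 3 members, windows are shown for the one with the largest fold (Gbp3), the one with the smallest error (Gbp2) and 1 of the 2 with matches to both motifs (Gbp7, the other being Gbp5), with matches in capitals, 5′ to 3′ on the plus strand.
Gbp3, chr3:142559794-142560093: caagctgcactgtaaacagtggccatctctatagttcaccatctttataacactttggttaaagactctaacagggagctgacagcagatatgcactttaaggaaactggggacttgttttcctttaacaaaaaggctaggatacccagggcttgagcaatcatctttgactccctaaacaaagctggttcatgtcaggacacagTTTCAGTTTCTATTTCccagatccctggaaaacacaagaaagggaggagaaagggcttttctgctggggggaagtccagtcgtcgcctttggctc
Gbp2, chr3:142620413-142620712: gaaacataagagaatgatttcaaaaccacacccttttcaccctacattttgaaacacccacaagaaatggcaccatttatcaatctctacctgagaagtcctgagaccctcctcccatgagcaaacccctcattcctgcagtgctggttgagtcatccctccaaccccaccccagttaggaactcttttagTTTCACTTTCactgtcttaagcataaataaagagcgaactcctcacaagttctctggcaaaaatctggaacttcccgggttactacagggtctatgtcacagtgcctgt
Gbp7, chr3:142530086-142530385: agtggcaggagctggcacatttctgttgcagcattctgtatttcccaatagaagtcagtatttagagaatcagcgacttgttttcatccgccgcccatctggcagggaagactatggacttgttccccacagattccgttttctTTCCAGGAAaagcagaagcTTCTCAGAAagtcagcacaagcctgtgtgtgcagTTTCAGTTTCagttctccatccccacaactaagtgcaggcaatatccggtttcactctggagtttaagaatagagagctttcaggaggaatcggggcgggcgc
The first motif was present in a window of each of the 4 chromosome 3 members and in 3.44% of 32851 mouse promoter windows. In Gbp3 its letters start 45 and 39 bases before the start site and overlap each other, in Gbp2 they start 59 bases and in Gbp7 53 bases before it. A second Gbp3 window, chr3:142560106-142560405, held neither motif. The gamma-activated letters occurred 2 times each in Gbp7 and Gbp5, in neither Gbp2 nor Gbp3, and in 8.30% of all windows. Such matches describe the letters only.

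A further sequence feature of the family is the end of the reading frame. Some mouse Gbp proteins carry a cysteine as the fourth residue from the end, to which a prenyl lipid is attached. A cysteine codon (capitals) stood at that place in 2 members and in Gbp2b.
Gbp2: TGCactatactctga
Gbp5: TGTgttataagctaa
The other 8 members had no cysteine codon there, as in Gbp6: ctaaagcatttatga. The enzymes that add and trim prenyl groups had 2 of 9 tested genes higher and 0 lower, with a median log2 fold change of 0.03. Zmpste24, a protease that trims prenylated ends, was higher (70.2 ± 0.673 CPM in Mdr2+/- and 57.7 ± 1.51 CPM in Mdr2+/+ livers, log2 fold change 0.28, adjusted p = 0.0171). Icmt, which methylates them, passed with a log2 fold change of 0.27 (adjusted p = 0.0379) but kept its call in 3 of 12 alternative fits and in none of those that left out a library. Zmpste24 lost its call without Mdr2+/+ library 1, Mdr2+/- library 2 or Mdr2+/- library 3 (adjusted p = 0.0508 to 0.0943).

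Genes of interferon signalling were uneven. Among 20 tested interferon receptors, kinases and factors 3 were called lower and 0 higher, with a median log2 fold change of -0.07. Nlrc5, the activator of class I antigen presentation genes, was lower (5.84 ± 0.885 CPM in Mdr2+/- and 13.1 ± 2.69 CPM in Mdr2+/+ livers, log2 fold change -1.17, adjusted p = 0.00323). Irf9, a DNA-binding factor of the interferon response, was lower with a log2 fold change of -0.59 (adjusted p = 0.0189), but not without Mdr2+/+ library 1 (log2 fold change -0.32) or Mdr2+/- library 2, where the adjusted p was 0.0641 to 0.127. Irf1, named after its values were seen, had 30.1, 21.2 and 22.9 CPM in Mdr2+/- livers, against 50.4 and 28.3 CPM in Mdr2+/+ livers, so the groups overlapped and it did not pass (adjusted p = 0.0660). Ifngr1, Ifngr2 and Jak2, parts of the interferon-gamma receptor complex named likewise, did not pass (adjusted p = 0.196, 0.459 and 0.997).

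Interferons themselves were at the detection limit. Ifng, named after its values were seen, had 1 count in each Mdr2+/- library, against 3 and 1 counts in the Mdr2+/+ libraries, and the limit of 3 counts set for detection equals 0.174 to 0.252 CPM across libraries. Ifnb1, Ifna1, Ifna2 and Ifna4 had 0 counts in all 5 libraries. Of the 11 genes listed as interferons and the cytokines that act with them, only Il18 passed the filter, at 9.05 ± 0.982 CPM in Mdr2+/- and 11.8 ± 0.592 CPM in Mdr2+/+ livers (adjusted p = 0.0812). Il12a, a subunit of interleukin-12, had 6 to 8 counts in Mdr2+/- libraries and 3 and 1 counts in Mdr2+/+ libraries. A difference in interferon RNA was not detectable at this depth.

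Partners that act with Gbp proteins were compared next. Of 12 immunity-related GTPases 8 were called lower and 0 higher, with a median log2 fold change of -0.92, close to the -0.93 of the Gbp members. Igtp had 41.2, 62.4 and 59.2 CPM in Mdr2+/- livers, against 231 and 157 CPM in Mdr2+/+ livers (log2 fold change -1.84, adjusted p = 6.3e-04). The log2 fold change was -1.21 for Iigp1, -2.17 for Tgtp1, whose near-identical copy Tgtp2 may share its reads, and -0.73 for Irgm1, a regulator of the other GTPases (adjusted p = 1.97e-04, 6.5e-04 and 8.7e-04). Among factors of the ATG8 conjugation system, which directs Gbp proteins to vacuoles, 1 of 10 was higher and 0 lower: Gabarapl1, with 143 ± 5.73 CPM in Mdr2+/- and 103 ± 9.0 CPM in Mdr2+/+ livers (log2 fold change 0.48, adjusted p = 0.00431). Its relative Gabarap had an adjusted p of 0.669. Inflammasome genes downstream had 2 of 12 lower and 1 higher, with a median of -0.32. Gsdmd, the pore-forming gasdermin D, was lower (16.5 ± 0.932 CPM in Mdr2+/- and 26.1 ± 1.57 CPM in Mdr2+/+ livers, log2 fold change -0.67, adjusted p = 0.00245). Casp8, a protease of cell death, was lower by less (log2 fold change -0.33, adjusted p = 0.0171) and lost its call without Mdr2+/+ library 1, Mdr2+/+ library 2 or Mdr2+/- library 2 (adjusted p = 0.0511 to 0.0854). Ninj1, which ruptures membranes late in that process, was higher (log2 fold change 0.22, adjusted p = 0.0425) but was called in 4 of 12 alternative fits and in none that left out a library. Other GTPases of the dynamin superfamily, outside the Gbp family, had 2 of 15 higher and 1 lower with a median of 0.05: Mfn2 and Atl3 were higher (log2 fold change 0.36 and 0.28) and Ehd3 lower (-0.29), called in 11, 6 and 8 of 12 alternative fits. Mfn2 lost its call without Mdr2+/+ library 1 (adjusted p = 0.0597). Atl3 lost its call without Mdr2+/+ library 1 or 2 or Mdr2+/- library 1 or 2, and Ehd3 without Mdr2+/+ library 1 or 2 or Mdr2+/- library 3.

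**Figure D5:**
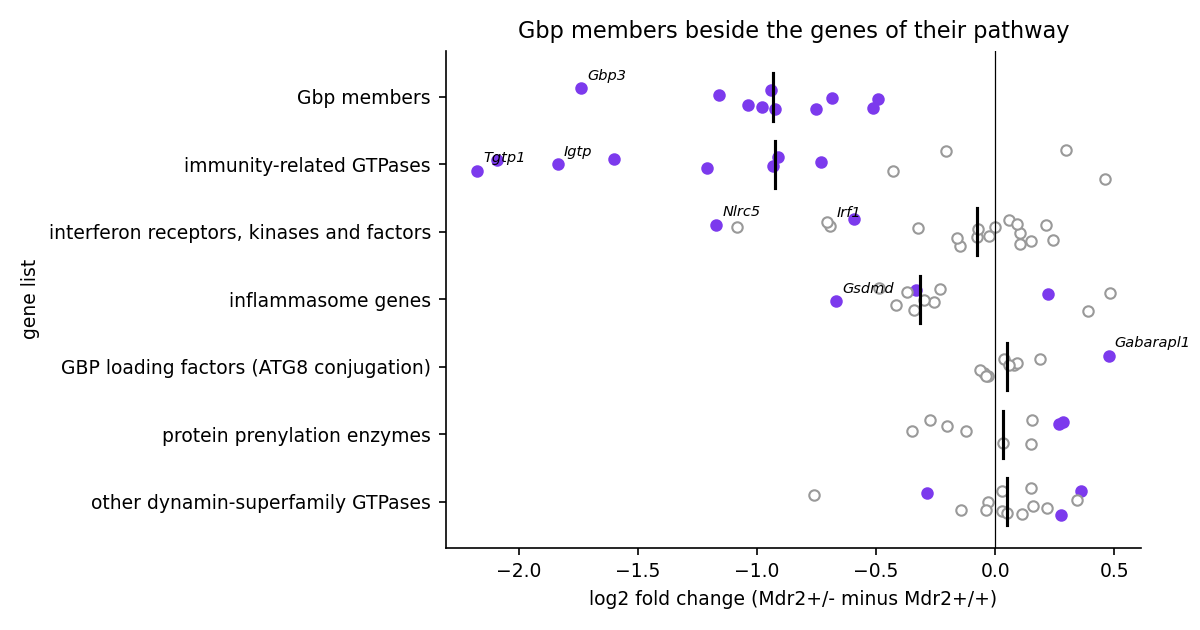
Log2 fold change (Mdr2+/- minus Mdr2+/+) of the 10 Gbp members above the tested genes of 6 pathway lists; filled points passed the adjusted p threshold and black ticks are medians over all tested genes of a list, of which 1 in the interferon receptor list is not drawn. The Gbp members and the immunity-related GTPases have medians of -0.93 and -0.92, and the medians of the other lists lie between -0.32 and 0.05.

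Cell type markers that moved in the same libraries are given for comparison, and their part in the Gbp difference was not tested. Hepatocyte markers, which define the labelled tissue, summed to 215183 to 233308 CPM in Mdr2+/- and 206018 to 222629 CPM in Mdr2+/+ livers, with 1 of 9 higher and 1 lower. T and natural killer cell markers summed to 16.4 to 18.3 CPM in Mdr2+/- and 19.3 to 26.0 CPM in Mdr2+/+ livers. Of 12 tested 1 was called lower, Cd3e, named after its values were seen. It had 6 to 15 counts per library and kept its call in 3 of 10 alternative fits. None of the 16 listed was at 0 counts in every library, although Prf1 was at 0 in Mdr2+/- library 1. Macrophage and Kupffer cell markers summed to 522 to 604 CPM in Mdr2+/- and 517 to 739 CPM in Mdr2+/+ livers, so the groups overlapped. Of 13 such markers 4 were called lower. These were Marco, C1qb, Msr1 and Cd163, named likewise and called in 7, 8, 12 and 9 of 12 alternative fits. Endothelial markers summed to 393 to 424 CPM in Mdr2+/- and 414 to 429 CPM in Mdr2+/+ livers, with 3 of 12 lower. Erythroid markers were lower in 7 of 8 cases, at 1720 to 1924 CPM in Mdr2+/- and 2896 to 3617 CPM in Mdr2+/+ livers. Neutrophil markers were higher in 7 of 10 cases (352 to 451 CPM in Mdr2+/- and 112 to 161 CPM in Mdr2+/+ livers) and B cell markers in 5 of 10 (95.7 to 107 CPM in Mdr2+/- and 55.4 to 82.6 CPM in Mdr2+/+ livers).

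Genes with a pattern most like that of Gbp11, the member with the highest level per length, were sought over the 5 libraries by the root-mean-square difference of centred log2 CPM. Among 13046 other genes the nearest was Ifi35, an interferon-induced gene, at 0.0322, where the median gene stood at 0.315. Gm2000, Igkc (the immunoglobulin kappa constant region), Pilra (a myeloid receptor) and Tnfsf10 (the death ligand Trail) followed at 0.0501 to 0.0602. Ifi35 had 17.0 ± 2.12 CPM in Mdr2+/- and 23.8 ± 3.28 CPM in Mdr2+/+ livers (log2 fold change -0.49, adjusted p = 0.0323). It lost its call without Mdr2+/+ library 1, Mdr2+/- library 1 or Mdr2+/- library 3 and kept it in 7 of 12 alternative fits, and Igkc and Pilra kept theirs in 4 and 6. Gm2000 and Tnfsf10 did not pass (adjusted p = 0.182 and 0.109). Among the other members Gbp9 was the closest to Gbp11 at 0.119 and Gbp3 the farthest at 0.597. The 5 genes named above lay nearer, but they are the smallest of 13046 distances over 5 libraries, and the members are few. The distance also grows with any difference in fold change. It is therefore not read as a closer likeness to these genes than to the family.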

How the data were processed

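Per the labels' protocols, TruSeq RNA libraries were made from snap-frozen liver (lobe 1) and run on an Illumina sequencer. TopHat and mm10 are named, per the submitters' processing notes. Not given in the sources used here: the counting tool, the annotation and the use of strand. The deposited files hold estimated counts per Ensembl gene, not scaled to depth or length, with library totals of 11944157 to 17312851. Counts of near-identical, overlapping or antisense genes are uncertain. Of deposited values above 0, 33.9 to 37.3% were whole numbers.

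Estimated counts were rounded, filtered with filterByExpr (minimum count 10; 13959 genes with 99.9% of counts) and scaled by TMM. Mdr2+/- was compared with Mdr2+/+ by the quasi-likelihood test of edgeR 4.0.16 in R 4.3.3, two-sided, with no covariate, and p-values were adjusted over the 13959 genes (Benjamini-Hochberg). DESeq2 1.42.0, other scalings and filters, the replicate number as a block, a transcript length offset and each library left out were alternatives. The procedure was tested on simulated counts drawn with the spread that the fit assumes. That simulation held no reads shared between copies and no excess in a single library, so it cannot speak to either. Whether libraries came from different animals is not stated in the labels, so the p-values reflect only the spread among these libraries, which may be technical. Chi-square per degree of freedom between libraries of a genotype was 5.30 to 8.86, so they differed by more than counting error. This cannot show whether they came from different animals or were separate libraries of the same RNA. Floors cover counting error only.

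Members, gene lists and tests were chosen with earlier results of these data known. Named were all members, other Gbp rows, up to 4 called genes of each list by p-value (with fewer than 2 called, the 2 most abundant), called genes within 500 kb of a cluster, and the 5 genes most like the leading member; others are marked where named. A gene that this rule names is not reported here. Sequences and positions come from RefSeq (GRCm38.p6) and GENCODE M21.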

Additional observations from a re-analysis of the deposited data

How the results depend on the processing

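All 10 members had a lower level in Mdr2+/- livers in each of the 13 alternative fits. The number called lower stayed at 10 under both other scalings, both other filters, the length offset and unrounded counts, and was 9 in DESeq2 (Gbp5 lost, adjusted p = 0.0910) and 9 with the replicate number as a block (Gbp11 lost, adjusted p = 0.0522). With single libraries left out it ran from 5 to 9. Against 1680 genes called across the transcriptome, the count was 697 to 1174 with single libraries left out, 1640 by library size alone (704 higher and 936 lower, against 925 and 755), 1212 in DESeq2 and 1277 with the block. Same-numbered libraries deviated together with correlations of only 0.0304 and 0.0286, and the main fit did not pair them. With 2 Mdr2+/+ libraries these correlations are not independent. They cannot show whether same-numbered samples shared a litter or a batch. The log2 ratio of the summed chromosome 3 members ran from -1.43 to -0.93 with single libraries left out, and that of the chromosome 5 members from -0.89 to -0.50, the end nearest 0 being without Mdr2+/+ library 1 in both. The cause was not tested. With 2 and 3 libraries, and 21 to 63 counts for Gbp5, depth limits that member most.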
